A study of Mus musculus with 21 samples.

Results

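Transcript levels of 10 genes of the p53 network were followed in mouse embryoid bodies that expressed the transcription factor TWIST1 as a monomer or as a dimer. The set holds Trp53, which encodes p53, its inhibitor Mdm2, the p53 target genes Cdkn1a, Ccng1, Bax, Bbc3, Trp53inp1 and Phlda3, and the cell-cycle inhibitors Cdkn2a and Cdkn2b. These genes were picked by symbol from the 48321 symbols that each count table lists. All 10 passed the filter on low counts, as did 14311 genes in all.

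Embryoid bodies are floating aggregates of differentiating embryonic stem cells, here from the A2loxCre line (strain C57BL/6 in the labels), which accepts an integrated coding sequence under the control of a doxycycline-switched promoter. RNA was taken on day 3 of differentiation in 7 groups of 3 samples, which was 16 h after induction in the 5 induced lines. The 2 control groups were the doxycycline-treated parental line, which carries no TWIST1 construct, and the untreated line with the TWIST1 monomer. The 5 induced lines, all with doxycycline, carried the monomer, the TWIST1-TWIST1 homodimer, or a dimer of TWIST1 with TCF3, with TCF4 or with TCF12. TCF3, TCF4 and TCF12 are E-proteins, the usual dimer partners of TWIST1. The labels name 1 line per construct, so a construct and the line that carries it cannot be told apart, and no dimer line was measured without doxycycline. They do not say whether the 3 samples of a group were separate cultures, so p-values measure only the spread between these samples, which may be technical.

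As background, p53 is a transcription factor that is made continuously and destroyed continuously, and its activity is set largely by how long the protein survives. MDM2 is the ubiquitin ligase that marks p53 for destruction, and Mdm2 is itself a p53 target, which closes a negative feedback loop. Active p53 switches on Cdkn1a, whose product p21 blocks cyclin-dependent kinases, and the apoptosis genes Bax and Bbc3. Cdkn2a encodes p16Ink4a and p19Arf, the latter an inhibitor of MDM2. TWIST1 has been described as restraining p53 and the Cdkn2a locus. Protein was not measured in these data.

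Total counts per sample ran from 6648842 to 15999693, and a level of 3 counts equalled 0.188 to 0.451 CPM, counts scaled to library size. Twist1 stood at 8.10 ± 0.79 CPM (SD, n = 3) in parental samples and 39.4 ± 2.9 CPM or more in each induced line, the highest being 612 ± 32 CPM in the monomer line. Tcf4 reached 330 ± 23 CPM in the TCF4 dimer line against 47.5 ± 7.3 CPM in the parental line. Tcf3 did not mark its line, at 154 ± 4.5 CPM against 167 ± 5.9 CPM, and Tcf12 was at 92.9 ± 35 CPM in its own line and 104 ± 15 CPM in the line for TCF3, so these 2 groups are called the TCF3-labelled and the TCF12-labelled libraries. Pluripotency markers summed to between 770 and 1243 CPM in every library, and the blood markers were near 0. In 2 libraries the counts differed from both replicates by 35.5 times sampling noise or more (chi-square per degree of freedom), where the 17 replicate pairs without them gave 1.42 to 3.80. These were TCF12-labelled sample 1, at 85.9 and 105, whose differences followed gene length as described further on, and uninduced monomer sample 1, at 35.5 and 39.7, which also had the fewest counts. Results are given for all 21 samples and for the 20 without the first, and calls of the 10 genes that use the uninduced monomer line also with both left out.

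Per kilobase of exon, Ccng1 was the most abundant of the genes, at a mean of 118.9 CPM per kb over all samples, followed by Trp53 at 79.0 and Bax at 70.9 CPM per kb. Phlda3, Trp53inp1 and Mdm2 lay between 24.9 and 39.8 CPM per kb, and Bbc3 and Cdkn1a at 13.3 and 11.4 CPM per kb. The Ink4 genes were lowest, at 4.83 CPM per kb for Cdkn2a and 1.42 CPM per kb for Cdkn2b. The 10 genes together therefore held abundant and scarce transcripts in every group.

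**Figure D1:**
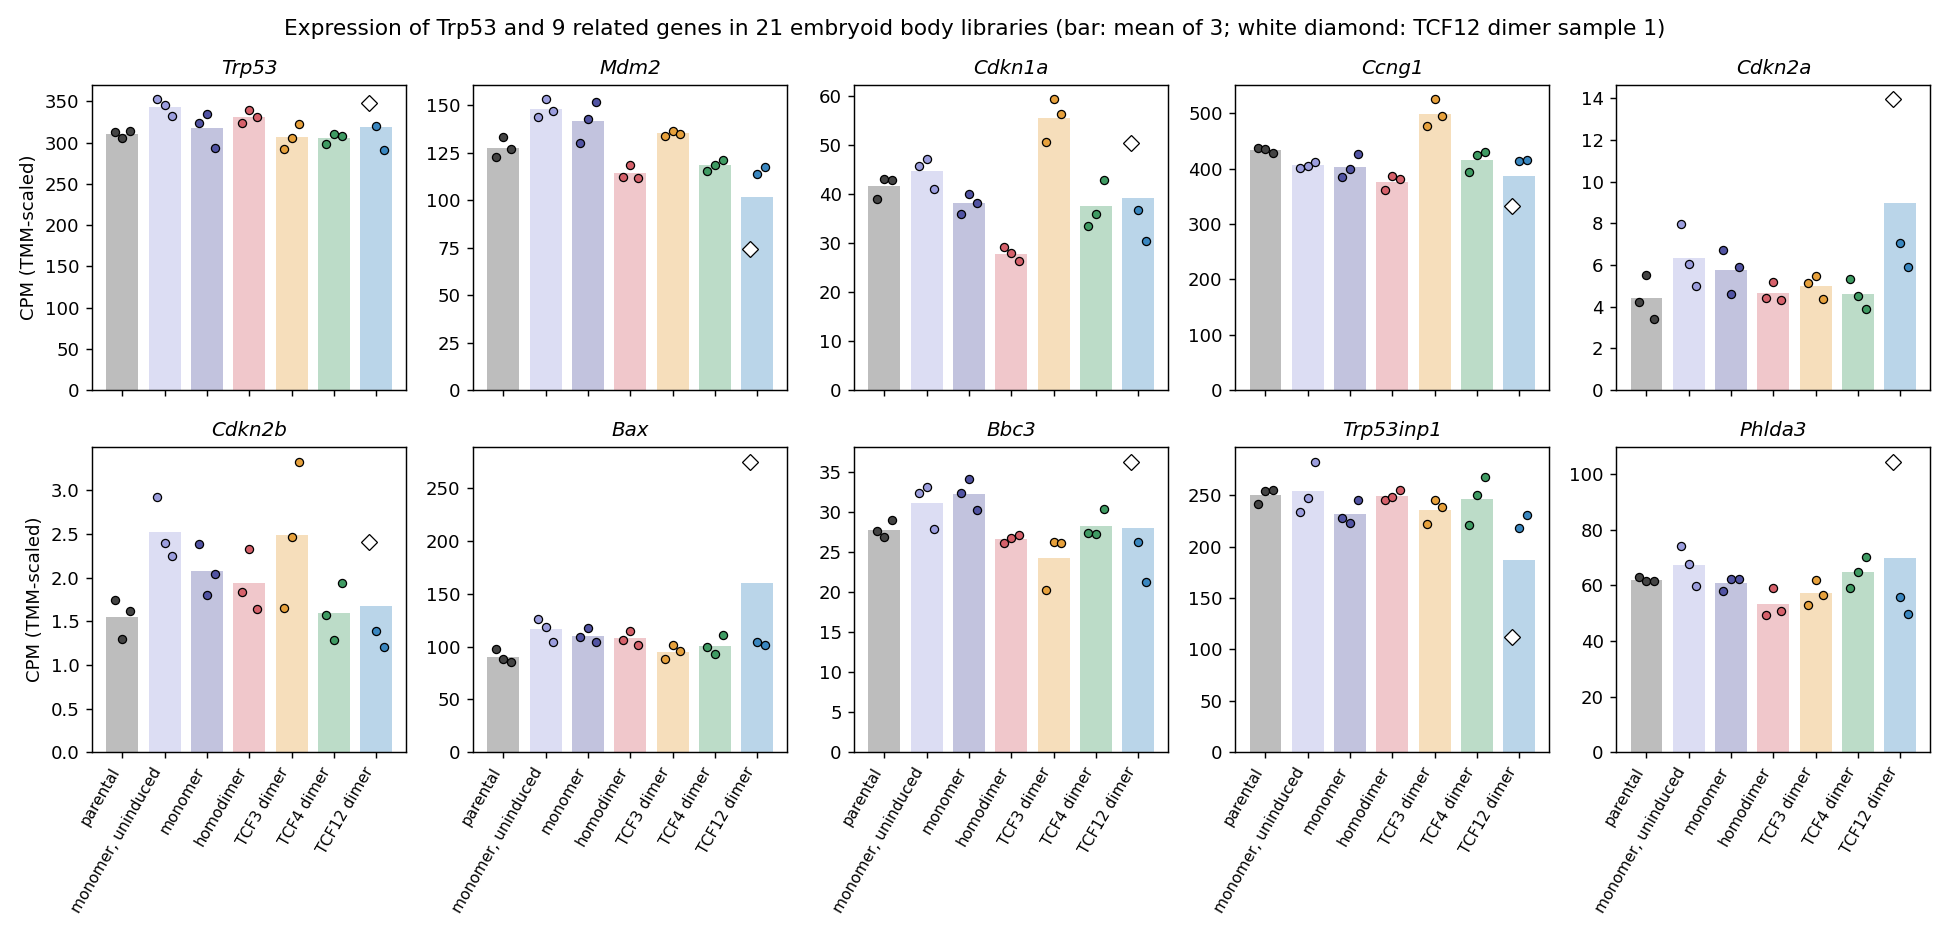
Each panel plots 1 gene in CPM (vertical axis, linear from 0) for the 7 groups, with a point per sample and a bar at the mean of 3 samples. Cdkn1a was lowest with the homodimer and highest in the TCF3-labelled libraries, and the white diamond of TCF12-labelled sample 1 lies far from its replicates for Bax, Cdkn2a, Trp53inp1, Phlda3 and Mdm2. For Cdkn1a that diamond also lies above both replicates.

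The test used was the quasi-likelihood F-test of edgeR, fitted over all genes tested, with p-values adjusted by the Benjamini-Hochberg method within each comparison. A gene is said to pass at an adjusted p under 0.05. Asked whether a gene differed anywhere among the 7 groups, 4 of the 10 genes passed (Cdkn1a, Ccng1, Mdm2 and Cdkn2a), where 50.7% of all genes tested did. In 20 samples 8 of the 10 passed, where 73.4% of all genes did, and Cdkn2a and Trp53inp1 did not. Both shares were near the background.

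Trp53 (chr11:69580348-69591873, plus strand, GRCm38) varied least of the 10 genes, by a factor of 1.21 between the lowest and the highest library. Parental samples were at 313, 306 and 314 CPM, uninduced monomer samples at 352, 346 and 332 CPM, and induced monomer samples at 324, 335 and 293 CPM. The homodimer line had 324, 340 and 331 CPM, and the TCF4 dimer line 298, 311 and 308 CPM. The TCF3-labelled libraries had 293, 305 and 322 CPM, and the TCF12-labelled ones 348, 320 and 291 CPM. In the order of group means each group overlapped the next, from the TCF4 dimer line at the bottom to the uninduced monomer line at the top. Over all 21 samples Trp53 passed in none of the 22 pairwise comparisons made, and its adjusted p across the 7 groups was 0.251. In 20 samples it was higher in the uninduced monomer line than in the parental line, by 0.14 ± 0.05 (SE) on the log2 scale with an adjusted p of 0.034 in edgeR (0.12, adjusted p = 0.087 with uninduced monomer sample 1 also left out), and lower in the heterodimers together than in the homodimer by a log2 difference of -0.12 ± 0.04 (adjusted p = 0.024 in edgeR). Against the uninduced monomer line, the TCF3-labelled, TCF4 dimer and TCF12-labelled libraries in 20 samples had Trp53 log2 values of -0.17, -0.16 and -0.17. The adjusted p was 0.0070, 0.0070 and 0.016 in edgeR, and 0.024, 0.020 and 0.030 with uninduced monomer sample 1 also left out. Induction of the monomer within its own line left a log2 difference of -0.11 in Trp53, with an approximate 95% interval from -0.25 to 0.02.

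Mdm2 (chr10:117688875-117710758, minus strand) and Cdkn1a (chr17:29090979-29100722, plus strand) are the feedback inhibitor and the main cell-cycle arm of p53. The bases before their transcription starts are shown because Cdkn1a carried the clearest differences among the lines and because TWIST1 dimers bind E-boxes, DNA motifs of the form CANNTG. The windows are the 250 bases before each RefSeq start (GRCm38.p6), printed 5′ to 3′ on the strand of the gene, with E-boxes and p53 decamers, the 10-base units of a p53 response element, in capitals. They lie at chr17:29090729-29090978 and chr17:29093519-29093768 for the upstream and downstream starts of Cdkn1a, and at chr10:117710759-117711008 for Mdm2.
Cdkn1a, upstream start: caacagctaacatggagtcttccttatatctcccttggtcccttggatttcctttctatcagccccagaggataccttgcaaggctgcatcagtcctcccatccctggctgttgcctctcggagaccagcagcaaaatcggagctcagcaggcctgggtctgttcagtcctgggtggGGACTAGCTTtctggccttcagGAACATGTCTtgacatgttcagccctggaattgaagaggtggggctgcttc
Cdkn1a, downstream start: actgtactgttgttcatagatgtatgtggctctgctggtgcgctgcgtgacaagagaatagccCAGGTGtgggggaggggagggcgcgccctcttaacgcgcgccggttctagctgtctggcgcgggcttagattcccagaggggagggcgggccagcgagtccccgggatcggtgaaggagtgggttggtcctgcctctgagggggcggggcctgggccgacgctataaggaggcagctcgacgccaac
Mdm2: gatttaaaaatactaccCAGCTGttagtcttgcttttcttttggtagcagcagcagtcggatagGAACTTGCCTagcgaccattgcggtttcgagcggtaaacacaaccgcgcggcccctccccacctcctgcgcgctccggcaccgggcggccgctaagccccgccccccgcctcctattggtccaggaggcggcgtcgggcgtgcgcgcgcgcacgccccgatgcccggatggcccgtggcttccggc

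The upstream Cdkn1a window held a pair of exact decamer matches at most 13 bases apart, the form counted here as a full p53 response element. This pair lay at chr17:29090906-29090937 and began 2863 bases before the downstream start. Decamers with a mismatch were not marked. The bases tgacatgttc, directly after the second decamer of the pair, depart from the pattern only in their first letter. Which of these bases p53 binds was not tested. Only 21 of 32851 RefSeq windows (0.0639%) held such a pair, searched on both strands, while a single decamer occurred in 7.13% of them. Windows existed for 9 of the 10 genes (13 in all), and 6 of the 13 held a CANNTG, against 66.2% of all windows. The Mdm2 window had its E-box CAGCTG 233 bases before the start, and the downstream Cdkn1a window had CAGGTG 187 bases before it. CATATG and CAGATG (or its complement CATCTG), which are E-box forms known for TWIST proteins, were in none of the 13 windows and in 3.46% and 14.4% of all windows. Such matches describe the letters alone.

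Cdkn1a, which encodes the kinase inhibitor p21, showed the widest separation between dimer lines. Parental samples were at 38.9, 43.1 and 42.8 CPM, uninduced monomer samples at 45.7, 47.1 and 41.0 CPM, and induced ones at 35.9, 40.0 and 38.2 CPM. The homodimer line had 29.2, 27.9 and 26.3 CPM, below every other library of the series. The TCF3-labelled libraries had 50.6, 59.2 and 56.4 CPM, the TCF4 dimer line 33.5, 36.0 and 42.9 CPM, and the TCF12-labelled libraries 50.4, 36.7 and 30.4 CPM. Every TCF3-labelled library was thus above every library of the other groups, the other 4 induced lines and both controls included.

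Against the parental line, Cdkn1a fell by 0.58 ± 0.14 on the log2 scale in the homodimer line (1.50-fold lower, adjusted p = 0.010 in edgeR) and rose by 0.41 ± 0.13 in the TCF3-labelled libraries (1.33-fold higher, adjusted p = 0.027 in edgeR). Without sample 3 of the homodimer line the first fell short of the threshold, at -0.54 with an adjusted p of 0.0538 in edgeR. Leaving out any parental sample, or TCF3-labelled sample 2 or 3, did the same to the second, with adjusted p between 0.0576 and 0.110 in edgeR and log2 values between 0.35 and 0.43. In the 20 samples both passed, at -0.58 and 0.40. Against the induced monomer line the differences were -0.45 ± 0.14 for the homodimer (adjusted p = 0.028 in edgeR) and 0.54 ± 0.14 for the TCF3-labelled libraries (adjusted p = 0.0066 in edgeR). The homodimer value against the induced monomer line was lost when sample 2 or 3 of the monomer line or any homodimer sample was left out, with log2 values between -0.48 and -0.40 and adjusted p up to 0.115 in edgeR. Against the uninduced monomer line the homodimer was at -0.68 (adjusted p = 0.0013 in edgeR), a call lost under no alternative run. The TCF3-labelled value there, 0.31, did not pass in 21 samples (adjusted p = 0.091 in edgeR). It passed in 20 (0.31, adjusted p = 0.0026 in edgeR) and with uninduced monomer sample 1 also out (0.32, adjusted p = 0.0052 in edgeR).

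Between dimers the contrast in Cdkn1a was largest for the TCF3-labelled libraries against the homodimer, at a log2 difference of 0.99 ± 0.14 (1.99-fold, adjusted p = 2.6e-05 in edgeR). The TCF3-labelled libraries were also higher than the TCF4 dimer line, by 0.56 ± 0.13 (adjusted p = 0.0052 in edgeR). Taken as a class, the E-protein heterodimers exceeded the homodimer by 0.64 ± 0.12 (adjusted p = 0.00073 in edgeR) and by 0.56 ± 0.08 in 20 samples, and every heterodimer library was above every homodimer library. These 3 differences passed under every alternative run. The TCF4 dimer line alone exceeded the homodimer by 0.43 ± 0.14, which did not pass (adjusted p = 0.078 in edgeR) in 21 samples and passed in 20 (0.44 ± 0.09, adjusted p = 0.00076 in edgeR). In the TCF12-labelled libraries Cdkn1a gave -0.09 ± 0.14 against the parental line in 21 samples and passed without sample 1, at -0.31 ± 0.10 (adjusted p = 0.015 in edgeR). The markers of other cell types differed between these groups as well. Those of mesoderm summed to 17.4 to 26.8 CPM in the TCF3-labelled libraries, 3.0 to 3.8 CPM in the homodimer line and 2.8 to 5.7 CPM in the parental line. Of these markers 3 of 5 were past the count filter, and Mesp1 was at 0 in every homodimer sample. The 5 primitive endoderm markers summed to 93.1 to 116 CPM, 24.6 to 29.1 CPM and 56.0 to 64.1 CPM in the same order, and the 6 pluripotency markers to 770 to 902, 1071 to 1149 and 1074 to 1130 CPM. For the TCF4 dimer line the mesoderm, primitive endoderm and pluripotency sums were 9.1 to 12.1, 20.8 to 25.1 and 856 to 909 CPM. In the TCF12-labelled libraries they were 20.2 to 27.0, 24.0 to 26.9 and 799 to 1038 CPM, so the mesoderm sum there was about as high as in the TCF3-labelled ones. Twist1 was at 55.1 ± 2.4 CPM in the TCF3-labelled libraries and 182 ± 17 CPM in the homodimer line. The part of these in the Cdkn1a differences was not tested. Cdkn1a shared 273 exonic bases with an antisense gene that the tables do not list, and the strand setting of the counting is not given in the sources used here.

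Ccng1 (chr11:40748552-40755309, minus strand) encodes cyclin G1, a p53 target that binds MDM2 and a phosphatase. Its 3 TCF3-labelled libraries, at 478, 525 and 495 CPM, were above all others. The parental line had 438, 436 and 429 CPM, the uninduced monomer line 401, 406 and 412 CPM, the induced monomer line 386, 399 and 427 CPM, and the homodimer line 361, 387 and 382 CPM. The TCF4 dimer line had 394, 424 and 430 CPM and the TCF12-labelled libraries 332, 413 and 416 CPM. Outside the TCF3-labelled libraries each group overlapped its neighbour in the order of means. Ccng1 was higher in the TCF3-labelled libraries than in the induced monomer line by 0.31 ± 0.08 (log2, adjusted p = 0.0069 in edgeR) and than in the homodimer line by 0.41 ± 0.08 (adjusted p = 0.00065 in edgeR). Against the parental line it was at 0.20 ± 0.08, which missed the threshold (adjusted p = 0.057 in edgeR) and passed in 20 samples (adjusted p = 0.0012 in edgeR).

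Both Ccng1 and Trp53 lie on chromosome 11, and that chromosome was shifted as a whole in the TCF3-labelled libraries. The median log2 difference of its 1117 tested genes from the parental line was 0.20, against 0.01 over all genes, and 30.3% of them rose, against 15.2% elsewhere. With the median of the chromosome subtracted, Ccng1 stood at 0.00 against the parental line, 0.11 against induced monomer samples, and 0.21 against homodimer samples. Trp53, at -0.02 against the parental line before that step, stood at -0.22 after it. Cdkn1a lies on chromosome 17. The part that the chromosome played in the Ccng1 difference was not tested.

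Mdm2 was highest in the monomer line, whether induced or not. Uninduced samples had 144, 153 and 147 CPM and the induced ones 130.5, 143 and 152 CPM, against 123, 133 and 127 CPM in the parental line. The homodimer line had 112, 119 and 112 CPM, the TCF4 dimer line 116, 119 and 121 CPM, the TCF3-labelled libraries 134, 137 and 135 CPM, and the TCF12-labelled ones 74.5, 114 and 118 CPM. All samples of the homodimer line, the TCF4 dimer line and the TCF12-labelled libraries were below all monomer and all parental samples. Against the uninduced monomer line Mdm2 fell by 0.37 ± 0.11 in the homodimer line (adjusted p = 0.022 in edgeR), by 0.32 ± 0.11 in the TCF4 dimer line (adjusted p = 0.035) and by 0.54 ± 0.11 in the TCF12-labelled libraries (adjusted p = 0.00099). Without TCF12-labelled sample 1 the 3 values were -0.37, -0.32 and -0.35, and with uninduced monomer sample 1 also out -0.39, -0.35 and -0.38, each passing. The homodimer call was lost without uninduced monomer sample 2 or 3 or homodimer sample 1 or 3 (adjusted p between 0.0538 and 0.0832 in edgeR), and the TCF4 call without any 1 sample of either group (adjusted p between 0.0593 and 0.112 in edgeR), with log2 values from -0.37 to -0.29. Scaling by library size ended both (adjusted p = 0.157 and 0.231 in edgeR), and a fit of the compared groups alone ended the TCF12-labelled call (adjusted p = 0.109 in edgeR).

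Against the parental line the Mdm2 value of the TCF12-labelled libraries was -0.32 ± 0.11 (adjusted p = 0.042 in edgeR) and became -0.14 ± 0.06 (adjusted p = 0.052 in edgeR) without sample 1. That call was also lost in 10 of the other 20 fits that left out 1 library, with adjusted p between 0.0503 and 0.122 in edgeR, and with scaling by library size (0.0683) or no filter on low counts (0.0547). In 20 samples Mdm2 was 0.21 ± 0.05 higher in the uninduced monomer line than in the parental line (adjusted p = 0.0016 in edgeR; 0.23 and 0.0020 with uninduced monomer sample 1 also out) and 0.14 ± 0.05 higher in the induced monomer line (adjusted p = 0.031 in edgeR). Neither passed in 21 samples, where the same log2 values were 0.22 ± 0.11 and 0.15 ± 0.11.

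The monomer lines also differed from the parental line in cell-type markers. Those of primitive endoderm, an early extraembryonic lineage, summed to 177 to 210 CPM in the uninduced and 176 to 196 CPM in the induced monomer line, against 56.0 to 64.1 CPM for parental samples, with 93.1 to 116 CPM for the TCF3-labelled and at most 29.1 CPM for the homodimer, TCF4 dimer and TCF12-labelled libraries. Markers of the primitive streak summed to 168 to 200 CPM in the parental line and to at most 37.0 CPM elsewhere. The part of these markers in the Mdm2 values was not tested. In whole aggregates, fewer cells of a type and less RNA per cell cannot be told apart.

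Cdkn2a (chr4:89274473-89294619, minus strand) was scarce everywhere. Its row sums the p16Ink4a and p19Arf transcripts, which start at different first exons and could not be separated here. The parental line had 4.25, 5.52 and 3.43 CPM, the uninduced monomer line 7.96, 6.05 and 4.98 CPM, and the induced monomer line 6.70, 4.61 and 5.90 CPM. The homodimer line had 4.42, 5.20 and 4.32 CPM, the TCF4 dimer line 5.34, 4.53 and 3.89 CPM, and the TCF3-labelled libraries 5.12, 5.47 and 4.39 CPM. The TCF12-labelled ones had 13.9, 7.05 and 5.88 CPM, all above the parental samples. There the log2 difference from the parental line was 1.00 ± 0.27 (adjusted p = 0.011 in edgeR), and 0.56 ± 0.20 without sample 1 (adjusted p = 0.038 in edgeR). Without parental sample 3 it was 0.85, with an adjusted p of 0.0648 in edgeR. Fitted with these 2 groups alone, neither this call nor those of Bax and Mdm2 in the same comparison passed (adjusted p = 0.201, 0.314 and 0.374 in edgeR). In the other 4 induced lines Cdkn2a lay between 0.06 and 0.39 on the log2 scale against the parental line, and none of these passed.

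Cdkn2b (chr4:89306289-89311032, minus strand), the neighbouring gene for p15Ink4b, ranged from 1.21 to 3.33 CPM over all samples, which is 12 to 41 reads. Counting error is large at this depth. Its only call against the parental line was in the TCF3-labelled libraries (1.65, 2.47 and 3.33 CPM against 1.74, 1.3 and 1.61 CPM), at 0.67 ± 0.26 in 20 samples (adjusted p = 0.039 in edgeR), with the samples overlapping, and at 0.68 ± 0.28 in 21 samples (adjusted p = 0.084 in edgeR).

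Bax (chr7:45461695-45466903, minus strand) encodes a pore-forming protein of the mitochondrial death pathway. The parental line had 97.5, 87.9 and 85.8 CPM, the uninduced monomer line 126, 119 and 105 CPM, the induced monomer line 110, 117 and 104 CPM, and the homodimer line 107, 115 and 102 CPM. The TCF3-labelled libraries had 88.4, 101 and 96.3 CPM, the TCF4 dimer line 99.2, 93.0 and 111 CPM, and the TCF12-labelled ones 275, 104 and 101 CPM. A single library thus held more than any other of the series, and its replicates were among the rest. The log2 value of 0.82 ± 0.25 for the TCF12-labelled libraries against the parental line (adjusted p = 0.020 in edgeR) became 0.18 ± 0.08 (adjusted p = 0.078 in edgeR) without it, and was 0.80 or 0.79 without parental sample 2 or 3 (adjusted p = 0.0662 and 0.0703 in edgeR). With that library out, Bax was higher than in the parental line in the uninduced monomer line (0.35 ± 0.07, adjusted p = 0.00021, and 0.30 with an adjusted p of 0.0023 without uninduced monomer sample 1), the induced monomer line (0.28 ± 0.07, adjusted p = 0.0025) and the homodimer line (0.26 ± 0.07, adjusted p = 0.0089), and all their samples lay above the parental ones. Bax shares 192 exonic bases with Gm45808 on the same strand, a gene that the tables do not list.

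Bbc3 (chr7:16308398-16318334, plus strand) encodes PUMA, a BH3-only activator of apoptosis. It ranged from 20.2 to 36.3 CPM and passed in 1 comparison over 21 samples, at 20.2, 26.2 and 26.2 CPM in the TCF3-labelled libraries against 32.4, 34.1 and 30.2 CPM in the induced monomer line (-0.41 ± 0.14, adjusted p = 0.044 in edgeR). That call was lost in 17 of the 21 fits that left out 1 of them, although it passed in 20 samples without TCF12-labelled sample 1 (adjusted p = 0.00061 in edgeR). In the 17 fits and the fit with a replicate block the adjusted p reached at most 0.247 in edgeR. No group differed from the parental line in Bbc3 in either set of samples.

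Trp53inp1 (chr4:11156441-11174379, plus strand) and Phlda3 (chr1:135766085-135769134, plus strand) encode a stress-induced cofactor of p53 and a repressor of AKT signalling. Outside TCF12-labelled sample 1, Trp53inp1 ranged from 218 to 283 CPM and Phlda3 from 49.5 to 74.1 CPM. In that library they were at 112 and 104 CPM. Trp53inp1 was lower in the TCF12-labelled libraries than in the uninduced monomer line, by -0.44 ± 0.17 (adjusted p = 0.045 in edgeR) and by -0.18 ± 0.07 without sample 1 (adjusted p = 0.036 in edgeR; -0.25 and 0.0055 with uninduced monomer sample 1 also out), but leaving out any of 18 other libraries ended the 21-sample call (adjusted p between 0.0506 and 0.168 in edgeR). Phlda3 changed sign in those libraries, from 0.17 ± 0.18 against the parental line in 21 samples to -0.24 ± 0.09 (adjusted p = 0.036 in edgeR) in 20.

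**Figure D2:**
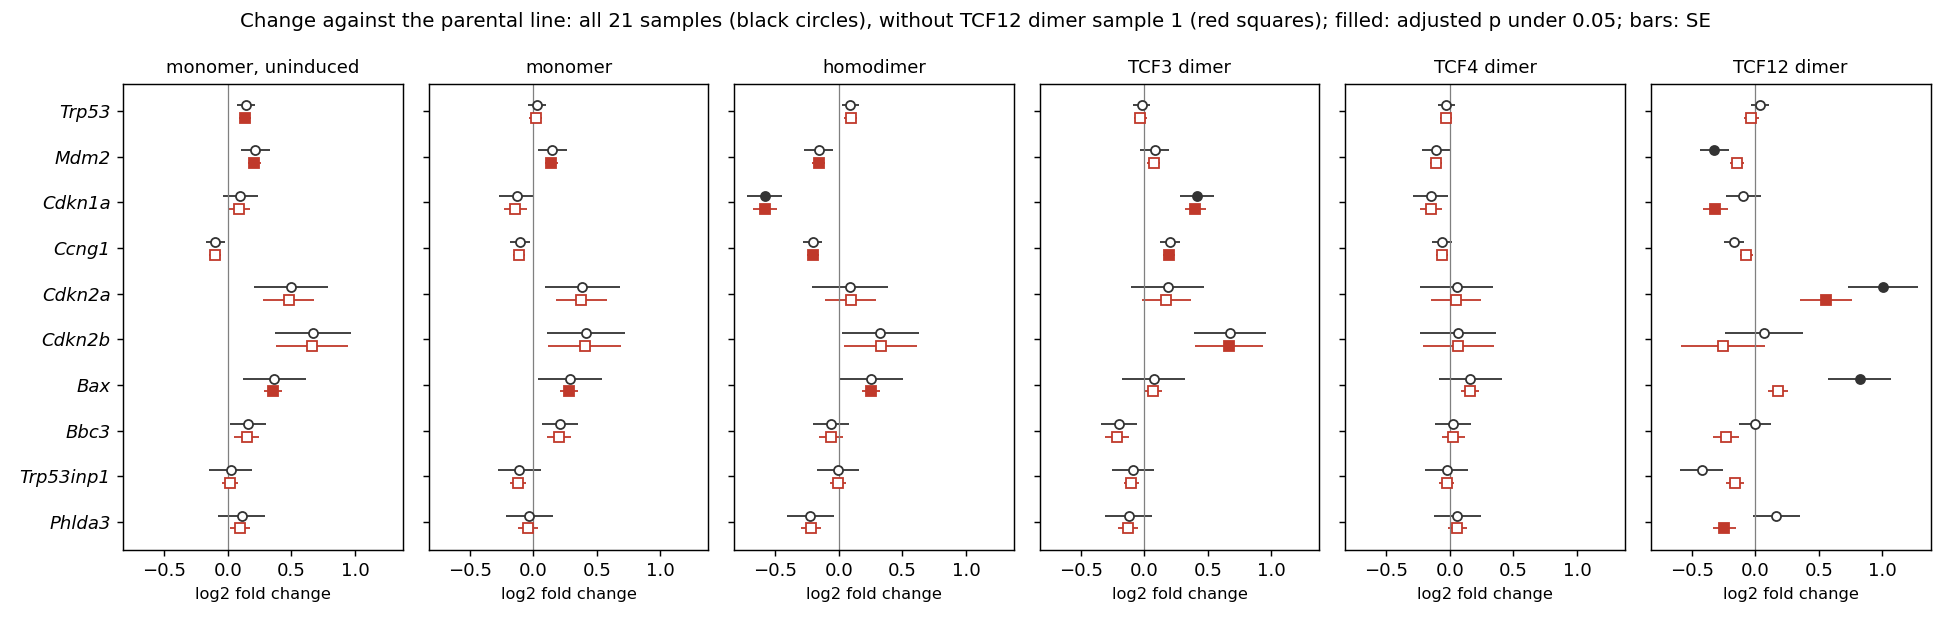
Log2 fold change of each gene against the parental line (horizontal axis) in the 6 other groups, for 21 samples (black circles) and without TCF12-labelled sample 1 (red squares), with bars of 1 standard error and filled symbols for an adjusted p under 0.05. The 2 sets of samples nearly coincide except in the last panel, where Bax moves from 0.82 to 0.18 and Phlda3 from 0.17 to -0.24.

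TCF12-labelled sample 1 differed from its replicates by an amount that followed exonic length. Across 13909 genes the Spearman rho between that difference and length was -0.575, where the 18 libraries of the 6 other groups lay between -0.260 and 0.281, uninduced monomer sample 1 at -0.214. This rho describes genes within a library, which are not independent replicates. The shortest decile of genes lay 0.78 above the replicates at the median on the log2 scale and the longest decile 0.74 below, a median of -0.74. Among the 10 genes the order was nearly that of length, with a rho of -0.879. Over the same 10 genes uninduced monomer sample 1 had a rho of -0.952, with a median absolute difference over all genes of 0.120 on the log2 scale against 0.485 in TCF12-labelled sample 1. Bax (1576 bases of exon), Cdkn2a (1172) and Phlda3 (1559) lay 1.42, 1.06 and 0.99 above the replicates, while Mdm2 (5083) and Trp53inp1 (6475) differed by -0.63 and -1.0. Trp53, of intermediate length, was 0.19 above. Cdkn1a (3553) lay 0.59 above the replicates and Ccng1 (3512), of similar length, differed by -0.32. Genes of 2977 to 3609 bases had quartiles of -0.19 and 0.48. RNA quality itself was not measured in the files, and its part was not tested.

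**Figure D3:**
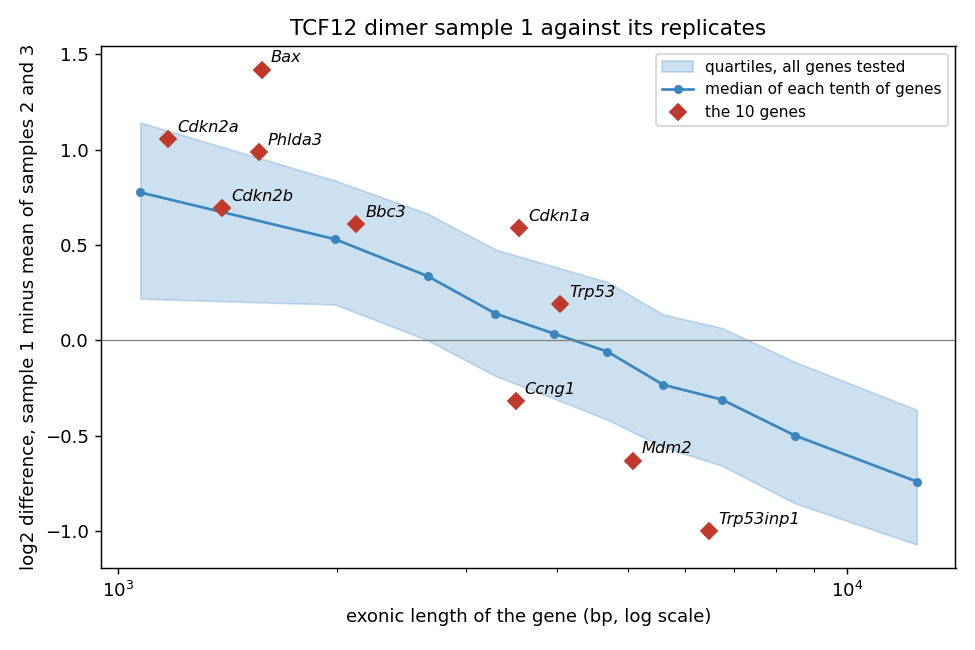
Log2 difference of TCF12-labelled sample 1 from the mean of its replicates (vertical axis) against exonic length in bases (log axis), with the medians of deciles of all genes as a line, their quartiles as a band and the 10 genes as diamonds. The line falls from 0.78 to -0.74, and the short genes Bax and Cdkn2a lie above 1 while the long gene Trp53inp1 lies at -1.0.

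Induction of the monomer in its own line, the comparison in which the labels differ in doxycycline alone, called none of the 10 genes, where 2.00% of all genes passed. None had an unadjusted p under 0.05 in edgeR, DESeq2 called 0, and in 20 samples 0 passed (6.17% of all genes) with 3 at an unadjusted p under 0.05. With uninduced monomer sample 1 also left out 0 passed. Twist1 itself went from 5.07 ± 0.63 to 612 ± 32 CPM in that comparison. The median log2 value of the 10 genes was -0.11, against -0.01 over all genes.

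Against the parental line the induced monomer line had 0 of 10 passing (20% of all genes passed), with 0 at an unadjusted p under 0.05 in edgeR and 0 called by DESeq2. In 20 samples there were 2, Mdm2 and Bax (35.2% of all genes). The uninduced monomer line had 0 of 10 (19.9%), with 1 at an unadjusted p under 0.05 in edgeR and 0 by DESeq2, and 3 in 20 samples, Trp53, Mdm2 and Bax (36.8%), the first of which was lost with uninduced monomer sample 1 also out. These are the same line with and without doxycycline, and both were compared with the same parental samples.

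The homodimer line had 1 of 10 (Cdkn1a), with 8.84% of all genes passing, and 4 in 20 samples (Cdkn1a, Ccng1 and Mdm2 lower, Bax higher), with 20.4% passing. The TCF3-labelled libraries had 1 (Cdkn1a, 28.4%) and 3 in 20 samples (Cdkn1a, Ccng1 and Cdkn2b, all higher, 46.5%). The TCF4 dimer line had none in either set, where 12.9% and 28.0% of all genes passed. DESeq2 called 0 there, and 0 had an unadjusted p under 0.05 in edgeR with 21 samples and 2 with 20. The TCF12-labelled libraries had 3 in 21 samples (Cdkn2a and Bax higher, Mdm2 lower, 27.0%) and a different 3 in 20 (Cdkn2a higher, Cdkn1a and Phlda3 lower, 30.3%), Cdkn2a being in both. The counts stayed near or below the share of all genes in every one of these comparisons except that of the homodimer line in 20 samples, where 4 of 10 stood against 20.4%. All share the parental samples.

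Against the induced monomer line, 1 of 10 passed for the homodimer (18.5% of all genes), 3 for the TCF3-labelled libraries (Cdkn1a and Ccng1 higher, Bbc3 lower, 22.1%), 0 for the TCF4 dimer (27.5%) and 1 for the TCF12-labelled libraries (Mdm2 lower, 33.5%). For the TCF4 dimer 1 gene had an unadjusted p under 0.05 in edgeR and DESeq2 called 0. In 20 samples the counts were 3, 4, 1 and 2, at 33.3%, 40.9%, 45.5% and 42.4% of all genes. Mdm2 was lower in the homodimer line, the TCF4 dimer line and the TCF12-labelled libraries in that set, by -0.30, -0.25 and -0.28.

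Against the uninduced monomer line the counts in the same order were 2, 1, 1 and 2 (22.8%, 28.9%, 32.3% and 37.0% of all genes), and in 20 samples 3, 7, 4 and 7 (37.8%, 47.6%, 50.6% and 48.2%). Those 7 for the TCF3-labelled libraries were Cdkn1a and Ccng1 higher, and Trp53, Mdm2, Bax, Bbc3 and Phlda3 lower by at most 0.36 on the log2 scale. For the TCF12-labelled libraries all 7 were lower, namely Trp53, Mdm2, Cdkn1a, Cdkn2b, Bbc3, Trp53inp1 and Phlda3, down to -0.92 for Cdkn2b. With uninduced monomer sample 1 also left out the counts were 3, 7, 2 and 7, with Phlda3 lost and Trp53inp1 added for the TCF3-labelled libraries, and Cdkn1a and Bax lost for the TCF4 dimer. The common biological coefficient of variation, the model's estimate of spread between replicates, was 0.120 in 21 samples and 0.0539 in 20.

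Between the dimers, all 6 pairs were tested. The TCF3-labelled libraries differed from the homodimer in 2 genes (22.9% of all genes), from the TCF4 dimer in 2 (19.7%), in both cases Cdkn1a and Ccng1 (5 and 6 in 20 samples, at 41.5% and 40.4%), and from the TCF12-labelled libraries in 5 (18.8%). The 5 were Cdkn1a, Ccng1 and Mdm2 higher and Bax and Cdkn2a lower in the TCF3-labelled libraries. None of the 5 passed when only these 2 groups were fitted (adjusted p between 0.280 and 0.430 in edgeR), and Bax was also lost with scaling by library size (0.0521) and with a replicate block (0.0541). Without TCF12-labelled sample 1 4 passed (25%), where Bax and Cdkn2a were lost at -0.12 and -0.38, and Cdkn2b joined at 0.92 ± 0.29 (adjusted p = 0.019 in edgeR). Among the 21-sample calls, those of Cdkn1a and Mdm2 against the TCF12-labelled libraries were lost without TCF3-labelled sample 2 (adjusted p = 0.0671 and 0.0598 in edgeR). That of Ccng1 against the TCF4 dimer was lost without TCF3-labelled sample 2 or TCF4 sample 1 (adjusted p = 0.106 and 0.065 in edgeR). The TCF12-labelled libraries and the homodimer differed in 2 genes (Cdkn1a and Cdkn2a higher, 15.4%), neither of which passed in 20 samples (0 passing, 21.2%, 5 at an unadjusted p under 0.05 in edgeR). TCF4 dimer and homodimer gave 0 (5.83%) and, in 20 samples, 3 (17.3%), and the TCF12-labelled libraries against the TCF4 dimer gave 0 (3.24%) and 1 (Phlda3, 4.78%). The heterodimers together differed from the homodimer in 2 genes, Cdkn1a and Ccng1, both higher (14% of all genes), and in 3 of 10 in 20 samples, where Trp53 was lower (28.9%).

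Other genes of the network were taken in 7 lists. As the background for their counts in 21 samples, the shares of all genes rising and falling against the parental line were 10.8% and 9.22% for the induced monomer, 4.81% and 4.02% for the homodimer, 16.3% and 12% for the TCF3-labelled libraries, 7.18% and 5.67% for the TCF4 dimer, 15.5% and 11.5% for the TCF12-labelled libraries, and 10.5% and 9.43% for the uninduced monomer. For counts in 20 samples, the shares of all genes passing in either direction were 35.2%, 20.4%, 46.5%, 28.0%, 30.3% and 36.8% in the same order. Of 16 p53 regulators tested (18 listed), counted as rising and falling against the parental line, 1 and 1 passed for the induced monomer, 0 and 0 for the homodimer, 0 and 3 for the TCF3-labelled libraries, 0 and 0 for the TCF4 dimer, and 1 and 4 for the TCF12-labelled libraries. Usp10, a deubiquitinase that stabilises p53, fell in the TCF3-labelled libraries (180 ± 7.0 CPM against 287 ± 6.3 CPM, log2 -0.67). Trp73, a relative of p53, was at 4.34 ± 0.97 CPM there against 11.3 ± 0.85 CPM (log2 -1.38). Chek2, a kinase that acts on p53 after DNA damage, was at -0.28 there and passed. Usp10 was below the parental line in the other groups too. It had 217 ± 7.5 CPM in the induced monomer line, where its fall also passed, and 230 ± 1.8 CPM in the uninduced one. In the TCF12-labelled, homodimer and TCF4 dimer libraries Usp10 had 221 ± 29, 259 ± 7.0 and 263 ± 1.9 CPM. Median log2 values of this list lay between -0.28 and -0.01 in the 5 induced lines, the lowest being that of the TCF12-labelled libraries, which was -0.04 in 20 samples. The counts in 20 samples were 2 and 1, 0 and 1, 3 and 7, 3 and 4, and 3 and 5.

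Of 27 other p53 target genes tested (30 listed), 5 rose and 0 fell for the induced monomer, 2 and 1 for the homodimer, 7 and 6 for the TCF3-labelled libraries, 3 and 5 for the TCF4 dimer, 4 and 8 for the TCF12-labelled libraries, and 7 and 1 for the uninduced monomer. Their median log2 value lay between -0.16 and 0.15 in these comparisons, against 0.00 to 0.02 over all genes. In 20 samples the counts in the same order were 6 and 1, 5 and 6, 7 and 9, 3 and 9, 4 and 10, and 9 and 2. Trp53i11, a p53-inducible gene, was the exception in size. Levels were 50 ± 2.6 CPM for parental and 39.8 ± 3.3 CPM for uninduced monomer samples, and 105 ± 7.6, 86.4 ± 2.1, 254 ± 1.9, 180 ± 3.8 and 228 ± 5.7 CPM in the induced monomer, homodimer, TCF3-labelled, TCF4 and TCF12-labelled libraries. It rose in all 5 induced lines, by 0.79 to 2.35 on the log2 scale, and by 1.39 ± 0.07 on induction within the monomer line (adjusted p = 3.2e-10 in edgeR).

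Pmaip1, which encodes the BH3-only protein NOXA, went the other way. Its level was 35.4 ± 2.7 CPM in parental samples, 34.5 ± 1.4 and 32.4 ± 2.1 CPM in the induced monomer and homodimer lines, and at 20.3 ± 0.58, 22.3 ± 1.0 and 20.3 ± 3.7 CPM in the TCF3-labelled, TCF4 and TCF12-labelled libraries. The last 3 fell, by 0.80, 0.67 and 0.80 on the log2 scale. Plk2, a p53-induced kinase, fell in the homodimer line, the TCF4 dimer line and the TCF12-labelled libraries, by 0.40, 0.53 and 0.60.

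Among 15 G1 cyclins, kinases and pocket proteins, Ccnd1, the gene for cyclin D1, fell in all 5 induced lines. Parental samples had 136 ± 1.7 CPM and uninduced monomer samples 126 ± 0.90 CPM, against 89.8 ± 2.2, 82.3 ± 3.1, 67.0 ± 1.5, 85.5 ± 6.2 and 68.3 ± 18 CPM in the induced monomer, homodimer, TCF3-labelled, TCF4 and TCF12-labelled libraries. Induction within the monomer line gave a log2 value of -0.49 ± 0.12 (adjusted p = 0.039 in edgeR), which missed the threshold for Ccnd1 without uninduced monomer sample 1 (adjusted p = 0.121 in edgeR) and passed with both libraries that stand apart left out. The list as a whole passed in both directions, with 2 up and 2 down for the induced monomer, 0 and 1 for the homodimer, 3 and 5 for the TCF3-labelled libraries, 0 and 3 for the TCF4 dimer, and 2 and 5 for the TCF12-labelled libraries. In 20 samples these were 3 and 5, 2 and 3, 4 and 7, 1 and 5, and 1 and 5. Ccne1 fell with each E-protein dimer, by 0.32, 0.23 and 0.22, and Ccnd2 fell in the induced and uninduced monomer lines, by 1.16 and 0.75. Without uninduced monomer sample 1 the second Ccnd2 value was -0.65 (adjusted p = 0.114 in edgeR), and it passed with both libraries out.

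Of the 20 proliferation genes, markers of dividing cells, at most 4 rose and at most 2 fell in any of the 6 comparisons with the parental line, and their median log2 value lay between -0.02 and 0.10. The most calls were in the TCF3-labelled libraries, 5 of 20 where 28.4% of all genes passed, and 10 (4 up and 6 down) in 20 samples, where 46.5% did. Mcm5 and Mcm7, of the replicative helicase, fell by 0.23 and 0.24 in the TCF3-labelled libraries, and Ccnb1 passed nowhere against the parental line in 21 samples, though it did in 20 with the TCF3-labelled libraries and the TCF4 dimer. Of 3 other kinase inhibitors tested (4 listed), Cdkn1c fell in the TCF3-labelled libraries (10.5 ± 0.66 against 16.9 ± 2.0 CPM, log2 -0.68) and rose in both monomer groups, by 0.46 induced and 0.73 uninduced. Cdkn1b, the gene for p27, rose by 0.41 with the TCF4 dimer, and by 0.29 in the TCF12-labelled libraries, and Cdkn2d did not pass.

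Of 12 BCL-2 family genes tested (13 listed), Bmf rose in all 5 induced lines, the monomer line included, and Bcl2l1 with all 4 dimers. Bmf, a BH3-only killer, had 21.9 ± 2.8 CPM in parental samples and 35.9 ± 2.3, 32.0 ± 1.6, 54.0 ± 8.7, 47.6 ± 2.9 and 50.5 ± 7.1 CPM in the 5 induced lines, in the order used above. Bcl2l1, which encodes the survival protein BCL-XL, was at 42.1 ± 1.9 CPM and at 53 ± 7.0, 57.3 ± 0.44, 74.5 ± 4.6, 67.4 ± 3.6 and 88.9 ± 18 CPM, and passed in the 4 dimer groups in both sets of samples. In the induced monomer line it was at 0.33 (adjusted p = 0.059 in edgeR) and passed in 20 samples (0.32, adjusted p = 0.0019 in edgeR). Hrk was higher in both monomer groups, by 1.38 induced and 1.31 uninduced, and lower in the TCF12-labelled libraries, by -0.89. Counts for the list in 21 samples were 3 and 0, 2 and 0, 2 and 1, 2 and 1, and 4 and 2 in the 5 induced lines, and in 20 samples 4 and 1, 2 and 0, 5 and 3, 3 and 3, and 2 and 3. Of 11 Polycomb genes (at most 3 up and 2 down in any group in 21 samples), whose complexes are known to silence Cdkn2a, Cbx2 was lower in the monomer line, by -0.33 induced and -0.46 uninduced. Its mean was above the parental one in each dimer line, most in the homodimer line (107 ± 2.0 against 66.0 ± 11 CPM, log2 0.69) and least in the TCF3-labelled libraries (80.5 ± 5.5 CPM). Cbx2 lies on chromosome 11, whose median log2 difference from the parental line was 0.20 in the TCF3-labelled libraries. The part of that shift in the Cbx2 value was not tested. Cbx7 fell by 0.32 and 0.40 in the TCF3-labelled and TCF12-labelled libraries, and Bmi1 rose by 0.60 in the TCF4 dimer line, 0.55 in the induced and 0.37 in the uninduced monomer line, the last with an adjusted p of 0.0901 in edgeR without sample 1 of that line.

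**Figure D4:**
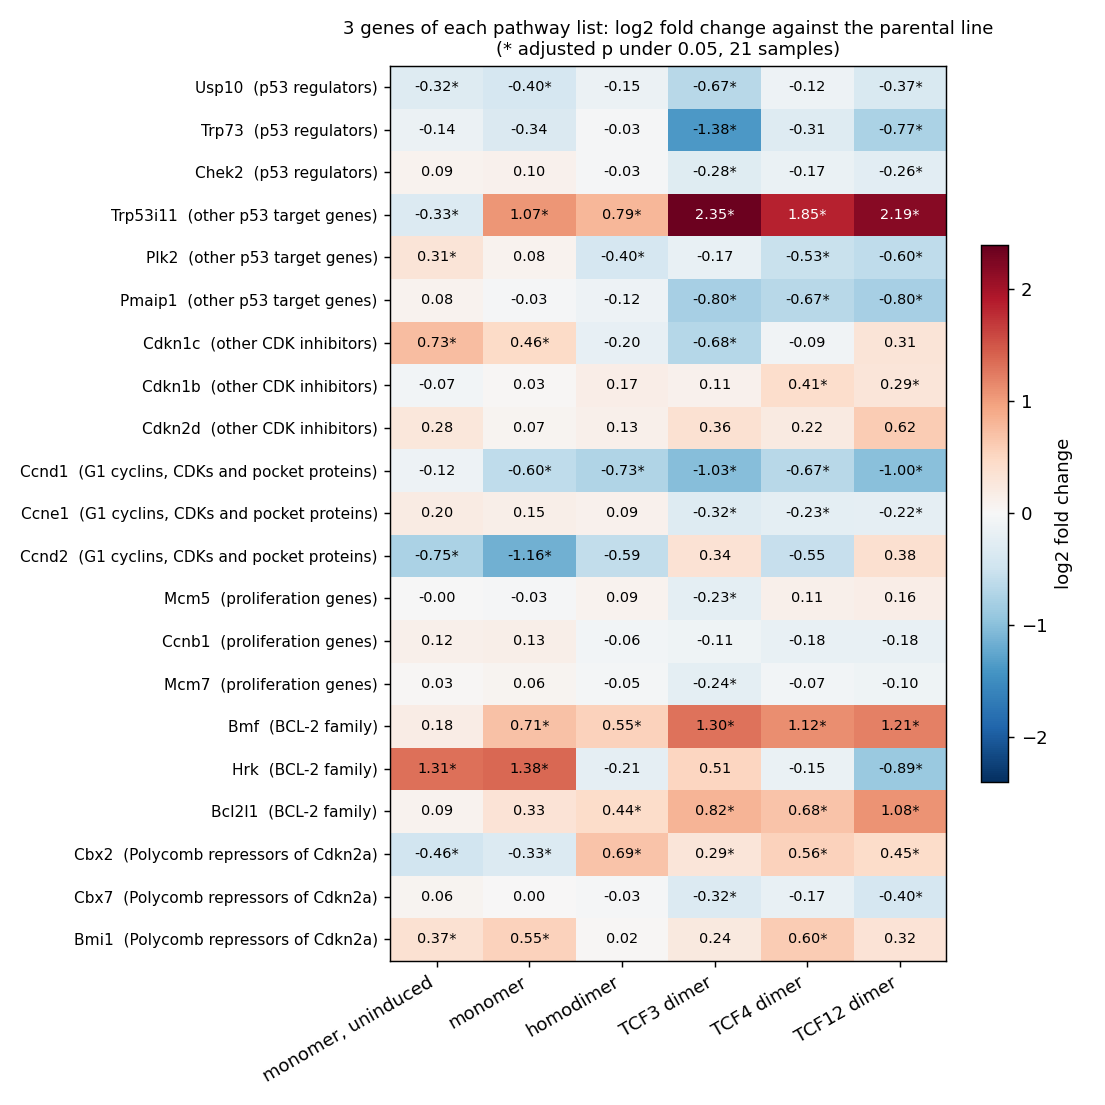
Log2 fold change against the parental line for 3 genes of each of the 7 lists (rows; the 3 with the smallest p across the groups) in the 6 other groups (columns), with red for higher, blue for lower and an asterisk for an adjusted p under 0.05 in 21 samples. Trp53i11, Bmf and Ccnd1 pass with 1 sign in all 5 induced lines, at up to 2.35, up to 1.3 and down to -1.03.

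The genes whose pattern over the samples was most like that of a member were ranked among 10607 genes of at least 5 CPM by Pearson r of log2 CPM over 21 samples, given here as a description. All genes were measured in the same 21 libraries, so depth and length effects enter each r. For Cdkn1a they were Wnt11 (0.85), Ccnd3 (0.84), Ccdc136 (0.84), Mgat1 (0.80) and P4hb (0.79), and r stayed at 0.78 or more for each of them in 20 samples. Mgat1 and P4hb lie on chromosome 11, which was shifted in the TCF3-labelled libraries, and the part of that shift was not tested. For Trp53 they were Phlda2 (0.82), Mrps5 (0.82), Tmem259 (0.81), Hexim1 (0.81) and Rad1 (0.80), and for Mdm2 Slc7a6 (0.97), Klf9 (0.96), Cltc (0.95), Susd6 (0.95) and Sft2d2 (0.95). For Cdkn2a they were Ubl4a (0.88), Ndufs3 (0.87), Dctn2 (0.87), Sep15 (0.86) and Get4 (0.86), with r falling to between 0.67 and 0.72 in 20 samples. Among the 10 genes themselves the pairs depended on the same library. Cdkn1a and Ccng1 had an r of 0.55 in 21 samples and 0.81 in 20, while Bax and Trp53inp1 had -0.86 in 21 and -0.08 in 20. Trp53 and Cdkn1a had 0.02 and -0.07.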

How the data were processed

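RNA-seq libraries of 21 samples were prepared with a TruSeq mRNA kit, per the labels' protocols. Tables of raw gene counts were deposited, 1 per sample, and FastQC, TopHat2 and HTSeq with mm10/GRCm38 are named in the submitters' processing notes. The annotation, the strand setting and the treatment of shared reads are not given in the sources used here, and genes sharing exons may be affected. In 18 of the tables, dates had replaced 25 symbols, so rows were joined by position. Counts were fitted with edgeR 4.0.16 (limma 3.58.1, R 4.3.3), 1 mean per group over 21 samples, TMM factors and filterByExpr (count 10, total 15), and adjusted by Benjamini-Hochberg over 14311 genes. Errors are standard errors from the F statistic, and approximate 95% intervals follow from them. CPM uses TMM-scaled library sizes, computed here. Floors use the unadjusted totals and cover counting error only. Replicate counts differed by 1.42 to 105 times sampling noise (chi-square per degree of freedom), so no 2 libraries agreed within that noise. The fit was tried on counts simulated from its own estimates of mean and spread. That simulation held no length-dependent library and no shifted chromosome, so it does not bear on either. Exonic lengths came from GENCODE M21, coordinates and promoters from RefSeq GRCm38.p6.

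The 10 genes and all lists were chosen with earlier results of these data known. Named genes were all 10 members, the 3 genes of each list with the smallest p across the 7 groups and a group mean of at least 1 CPM, and the 5 genes most correlated (log2 of CPM + 0.5) with Trp53, Cdkn1a, Cdkn2a and Mdm2. Alternatives were a filter of at least 1 CPM in 3 samples or none, scaling by RLE factors or by library size, DESeq2 1.42.0, fits of the compared groups alone, a replicate block, and each sample left out. Leaving out both libraries that stand apart and testing 6 pairs of dimers were added after seeing the data. Adjustment was within, not over, the 22 comparisons.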

Additional observations from a re-analysis of the deposited data

Results flagged for a closer look

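Cdkn1a differed between the libraries of the E-protein heterodimers and those of the homodimer, tested directly as the mean of the 3 heterodimer groups minus the homodimer, with a log2 difference of 0.638697 (adjusted p = 0.00073 in edgeR's quasi-likelihood test), and every heterodimer library was above every homodimer library. The same contrast for Ccng1 was 0.196493 (adjusted p = 0.045 in edgeR), with overlapping samples, and it was lost in 18 of the 21 fits that left out 1 library. The chromosome 11 median in that contrast was 0.08. By group, the Cdkn1a log2 difference from the homodimer was 0.99 for the TCF3-labelled and 0.49 for the TCF12-labelled libraries. The second did not pass without TCF12-labelled sample 1. For the TCF4 dimer line alone Cdkn1a did not pass against the homodimer in 21 samples and passed in 20.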

How the results depend on the processing

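The numbers below count how many of the 10 genes passed, with the value of the 21-sample fit in brackets. RLE factors and the filter of 1 CPM in 3 samples gave the same counts in all 17 comparisons. DESeq2 gave 2 (1) for the TCF3-labelled libraries against the parental line and 2 (1) for the TCF4 dimer against the uninduced monomer line. Across the 7 groups 5 (4) passed with DESeq2, 3 (4) with library size only and 5 (4) without a filter on low counts. With library size only, the counts against the uninduced monomer line were 1 (2) for the homodimer, 2 (1) for the TCF3-labelled, 0 (1) for the TCF4 and 1 (2) for the TCF12-labelled libraries. They were 1 (2) for the heterodimers against the homodimer and 2 (3) for the TCF12-labelled libraries against the parental line. Without a filter on low counts they were 3 (1) for the TCF12-labelled libraries against the induced monomer line, 0 (1) for the TCF4 dimer against the uninduced one and 1 (2) for the heterodimers against the homodimer. The TCF12-labelled libraries against the uninduced monomer line then had 3 (2).

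Fitting only the groups compared gave, against the parental line, 2 (0) for the induced monomer, 5 (1) for the homodimer, 2 (1) for the TCF3-labelled, 0 (3) for the TCF12-labelled libraries and 3 (0) for the uninduced monomer. Against the induced monomer line this fit gave 4 (1) for the homodimer and 4 (3) for the TCF3-labelled libraries. There it also gave 1 (0) for the TCF4 dimer and 0 (1) for the TCF12-labelled libraries. Against the uninduced line the counts were 4 (2), 6 (1), 4 (1) and 0 (2) in the order homodimer, TCF3, TCF4, TCF12. The heterodimers against the homodimer had 1 (2). The fit without TCF12-labelled sample 1 and uninduced monomer sample 1, chosen after seeing the data, gave 2 (0), 5 (1) and 3 (1) for the induced monomer, the homodimer and the TCF3-labelled libraries against the parental line and 2 (0) for the uninduced monomer. It also gave 3 (1), 1 (0) and 3 (1) for the homodimer, TCF4 and TCF12 groups against the induced monomer line, 7 (1), 2 (1) and 7 (2) for the TCF3, TCF4 and TCF12 groups against the uninduced one, and 9 (4) across the 7 groups. The TCF12 group against the parental line and the TCF3 group against the induced monomer line each had 4 (3). The homodimer against the uninduced monomer line and the heterodimers against the homodimer each had 3 (2).

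The replicate numbers did not pair the samples: the mean correlation of deviations was 0.0214 over 63 same-numbered pairs and -0.0102 over 126 others. With the replicate block, 2 (1) passed for the TCF3-labelled libraries against the parental line, 2 (1) for the homodimer and 2 (1) for the TCF12-labelled libraries against the induced monomer line. The block also gave 4 (3) for the TCF12-labelled libraries against the parental line and 2 (3) for the TCF3-labelled ones against the induced monomer line.

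Leaving out each library in turn gave, against the parental line, 0 to 2 for the induced monomer, 0 to 4 for the homodimer, 0 to 3 for the TCF3-labelled, 0 to 5 for the TCF12-labelled libraries and 0 to 3 for the uninduced monomer, and 0 throughout for the TCF4 dimer. Against the induced monomer line the ranges were 0 to 3, 2 to 4, 0 to 1 and 1 to 4, and against the uninduced one 1 to 3, 1 to 7, 0 to 4 and 1 to 7, both in the order homodimer, TCF3, TCF4, TCF12. Heterodimers against homodimer gave 1 to 3, the 7 groups 4 to 8, and induction of the monomer 0 in each fit.

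Phlda3 changed sign in the TCF12-labelled libraries. With 1 of their samples out, Phlda3 ranged from -0.24 to 0.35 against the parental line, from -0.34 to 0.24 against the uninduced monomer line and from -0.30 to 0.30 against the TCF4 dimer, the lowest being without sample 1 each time. The cause was not tested. With both libraries out it was -0.25, -0.28 and -0.31, and -0.22 against the induced monomer line. Depth limits Cdkn2b most, with 12 to 41 reads per sample.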
